A study of Oryza sativa Japonica Group with 29 samples.

Results

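The outer ends of rice chromosomes 11 and 12 carry a long duplicated segment, so that many genes there have a collinear copy on the other chromosome. Expression of these genes was described in roots of 25-day-old hydroponic seedlings of the cultivar ZH11 (WT) and of plants over-expressing OsNMCP1 (OE), a gene for a protein that resembles lamins and sits at the periphery of the nucleus. Loci were taken when they started within the first 1500000 bases of either chromosome and reached 1 TPM (transcripts of a locus per 1000000 of all transcripts, a level per length) in at least 2 of 11 RNA sequencing libraries. Of 531 loci listed in both ends, 286 reached that level and 245 did not. After 7 loci were left out by the rule, 279 remained, 133 on chromosome 11 and 146 on chromosome 12, out of 23699 loci that reached the same level in the genome and 55986 listed.

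Normal conditions were sampled with 3 libraries of WT and 2 of OE, and drought with 3 of each genotype, where drought means 3 h without water supply before the roots were taken. Neither the promoter of the transgene nor the number of transgenic lines is stated in the labels. OsNMCP1 (LOC_Os01g56140) lay between 35.5 and 37.6 TPM in WT normal, 167 and 184 in OE normal, 28.1 and 46.4 in WT drought, and 347 and 452 in OE drought libraries. The 6 drought libraries are labelled genomic DNA, although their titles name RNA sequencing. They were treated as RNA. The drought and normal libraries were also numbered in separate blocks of the series. Drought can therefore not be told apart from any other difference between those sets of libraries. Whether replicates are separate cultures is not stated, and p-values therefore cover the spread among libraries alone, which may be technical. Implied depth was 5.79 to 11.95 gigabases. Within WT drought, replicate 3 was the least like the others, with correlations of 0.9274 and 0.9439 against 0.9816 between the other two.

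Segments duplicated long ago normally drift apart in sequence. The ends of rice chromosomes 11 and 12 are unusual, because their copies remained so similar that the segment was first taken for a recent duplication. Later comparisons with other grasses traced it to the ancient genome duplication shared by the cereals, with repeated gene conversion between the chromosomes, a process in which one copy is overwritten by the other. Copies of a duplicated gene can keep the same expression, divide it between them, or respond to different conditions. How reads from near-identical copies were divided when these tables were made is not known, and every level given for a single copy carries that limit.

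Copies were paired by their order along both chromosomes, their strand and their gene span, without sequence. This gave 120 collinear pairs in which neither locus was left out. In 68 pairs both copies were among the 279 loci, and these are the pairs compared here. In 25 pairs 1 copy was, on chromosome 11 in 7 pairs and on chromosome 12 in 18, and in 27 pairs neither was. One further locus had a partner that was left out, and 117 loci, 58 on chromosome 11 and 59 on chromosome 12, had no partner. Of the 68 pairs, 47 lay in close collinearity, with an offset within 3000 bases of that of a neighbouring pair and spans within a ratio of 0.9. A pair outside that set is less sure, since span and order alone joined it. In a reference annotation of another assembly, 232 of the 279 loci were matched to a gene and few of those carried a name, so most loci below are known by identifier alone. No sequence of these loci was used here.

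Where both copies reached 1 TPM in at least 2 libraries, they were most often similar in level. The 25 pairs in which only 1 copy reached it are not part of these counts. Taken as TPM + 1, the mean levels of the 2 copies over the 11 libraries lay within 1.5 times of each other in 41 of 68 pairs, at least 2 times apart in 12 and at least 4 times apart in 5. Within each library the copies were compared as log2 of chromosome 11 copy over chromosome 12 copy, each as TPM + 1. This log2 ratio had a median absolute size of 0.36 over the pairs. The added 1 makes copies at low levels look more alike, and with a pseudocount of 0.1 the median absolute size was 0.45. Neither chromosome was favoured over the set, with a median log2 ratio of -0.022. The chromosome 11 copy was higher in all 11 libraries in 17 pairs, the chromosome 12 copy in 11, and the order differed between libraries in 40.

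Of the 5 pairs with the highest summed level, 4 had copies whose means lay within 1.5 times of each other. LOC_Os11g03400 and LOC_Os12g03090 were the highest, with 483, 471 and 495 TPM for the chromosome 11 copy and 416, 412 and 422 for the chromosome 12 copy in WT normal libraries. In OE normal they stood at 387 and 387 TPM against 319.7 and 331 TPM. Under drought the chromosome 11 copy ranged from 162 to 339.9 TPM and the chromosome 12 copy from 148 to 254. The chromosome 11 copy was the higher in every library, and the drought shift of the log2 ratio was 0.0042 (exact permutation p = 0.945). Both copies fell with drought in WT, by 1.11 and 1.09 on the log2 scale.

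LOC_Os11g03380 and LOC_Os12g03060 lay at 164 to 167 and 168 to 173 TPM in WT normal libraries, and at 109 to 121 and 101 to 114 TPM in WT drought libraries. The chromosome 12 copy fell slightly further, and the small shift of 0.18 in the log2 ratio was at the smallest p that the exact permutation test allows, 0.005. LOC_Os11g02150 and LOC_Os12g02094 kept their ratio, with 42.2 to 47.5 and 54.5 to 60.2 TPM in WT normal libraries and 70.4 to 79.1 and 88.0 to 95.4 TPM in OE drought libraries. The chromosome 12 copy was higher in all 11 libraries, and the shift was -0.014 (exact permutation p = 0.880).

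LOC_Os11g03730 and LOC_Os12g03470 did not keep theirs. In WT normal libraries the chromosome 11 copy stood at 64.8, 69.2 and 66.5 TPM and the chromosome 12 copy at 101, 105 and 98.98. In OE drought libraries the values were 83.5, 101 and 93.6 against 74.6, 81.8 and 94.7 TPM. The chromosome 12 copy was higher in all normal libraries, and the chromosome 11 copy in 2 of 3 OE drought libraries. The log2 ratio moved by 0.55 toward chromosome 11 (exact permutation p = 0.005).

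The fifth of these pairs was also among the most unequal. LOC_Os11g02130 was read at 2.71, 4.89 and 2.78 TPM in WT normal libraries and its copy LOC_Os12g02080 at 37.5, 43.6 and 37.3 TPM. With drought the chromosome 11 copy reached 11.3, 27.7 and 106 TPM in WT and 89.8, 99.3 and 101 in OE. The chromosome 12 copy reached 47.3, 78.6 and 208 TPM in WT and 258, 311 and 287 in OE. The WT drought libraries were widely spread for both copies, and the highest was replicate 3. Leaving out WT drought replicate 3 took the log2 rise of LOC_Os11g02130 in WT from 2.95 to 2.11, and the call remained. The chromosome 11 copy held 8.0% of the pair's summed TPM in WT normal libraries and 30.2% in WT drought libraries, and the log2 ratio moved by 1.71 (exact permutation p = 0.005).

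In the other most unequal pairs the lower copy ranged from well under 1 TPM to several TPM. LOC_Os11g03470 stood at 67.9 to 72.9 TPM in the normal libraries against 5.28 to 8.14 for LOC_Os12g03200. LOC_Os11g02570 stood at 15.0 to 23.2 TPM there, against 1.59 to 3.04 for LOC_Os12g02500. LOC_Os11g03780 stood at 8.84 to 11.3 TPM against 0.491 to 0.871 for LOC_Os12g03530. LOC_Os11g02774 was the low copy of its pair at 0.108 to 0.598 TPM, against 3.72 to 7.45 for LOC_Os12g02630. The higher copy of each pair was the same in all 11 libraries.

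The balance between the copies differed between drought and normal libraries in many pairs. The question was asked with the log2 ratio, from which library scaling cancels up to the pseudocount, in an exact permutation test (two-sided) of drought against normal with labels permuted within genotype. The smallest p this design allows is 0.005. The ratio shifted at an unadjusted p under 0.05 in 32 of 68 pairs (47.1%), toward the chromosome 11 copy in 14 and toward the chromosome 12 copy in 18. With Benjamini-Hochberg adjustment over the 68 pairs, the whole family of this test, 23 passed. Without WT normal replicates 1 and 3, which stand apart in the outermost pairs, 18 of 68 passed with a smallest possible p of 0.025, and in the 47 closely collinear pairs 22 passed. In 21 pairs (30.9%) the drought and normal ratios did not overlap in either genotype and moved the same way in both, and in 4 pairs they did not overlap but moved in opposite ways. These 4 include the PHOT1B and PHOT1A pair and others of the 9 outermost pairs, where WT normal replicates 1 and 3 lay low. The shift was 1 or more on the log2 scale in 10 pairs.

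A pair of NAC transcription factors, members of a plant family many of whose genes respond to drought and salt, exchanged rank. NAC45 (LOC_Os11g03370, chromosome 11, 1269314 to 1271303) stood at 2.89, 2.77 and 2.25 TPM in WT normal and 2.48 and 2.73 in OE normal libraries. Its copy ONAC077 (LOC_Os12g03050, chromosome 12, 1146995 to 1148742) stood at 1.10, 1.16 and 1.25 TPM in WT normal and 2.46 and 1.56 in OE normal libraries. NAC45 was the higher in all 5 normal libraries.

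After drought NAC45 (LOC_Os11g03370) reached 11.4, 14.5 and 20.7 TPM in WT and 32.3, 33.1 and 22.2 in OE. ONAC077 (LOC_Os12g03050) reached 27.1, 40.4 and 37.2 TPM in WT and 72.2, 72.5 and 46.2 in OE. Both copies rose without overlap, and ONAC077 was the higher in all 6 drought libraries. The rise in log2(TPM + 1) was 2.15 (SE 0.22) for NAC45 and 4.03 (SE 0.22) for ONAC077 in WT, with limma adjusted p of 3.1e-05 and 5.7e-07. NAC45 held 69.3% of the summed TPM in WT normal and 30.8% in WT drought libraries. The log2 ratio fell by 1.62 (exact permutation p = 0.005), and by 1.49 to 1.76 with any 1 library left out. The pair lies outside the closely collinear set, with a span ratio of 0.878.

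The mini zinc finger genes MIF1 and MIF2 parted in the opposite sense. Mini zinc fingers are short proteins with a zinc finger and no homeodomain, and in Arabidopsis they are known to bind and inhibit zinc finger homeodomain factors. MIF1 (LOC_Os11g03420, chromosome 11, 1298250 to 1298993) and MIF2 (LOC_Os12g03110, chromosome 12, 1180358 to 1181099) started level, at 12.6, 14.8 and 15.0 TPM and 12.7, 12.7 and 15.5 TPM in WT normal libraries. In WT drought libraries MIF1 stood at 25.2, 25.0 and 23.9 TPM and MIF2 at 8.35, 8.19 and 6.67. In OE they went from 13.8 and 12.3 TPM (MIF1) and 11.5 and 13.9 TPM (MIF2) to 15.3, 12.5 and 13.6 and to 4.02, 2.69 and 4.5 TPM.

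MIF1 therefore stood above MIF2 in all 6 drought libraries, and the copies overlapped in normal ones. In WT, MIF1 (LOC_Os11g03420) rose by 0.77 (SE 0.13, limma adjusted p = 0.00051) and MIF2 (LOC_Os12g03110) fell by 0.75 (SE 0.18, limma adjusted p = 0.0049). That fall was not called when libraries were scaled by median ratios. In OE, MIF1 differed by 0.07 (SE 0.14) and MIF2 fell by 1.54 (SE 0.20). The log2 ratio moved by 1.56 toward MIF1 (exact permutation p = 0.005), by 1.51 in WT and 1.62 in OE.

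**Figure D1:**
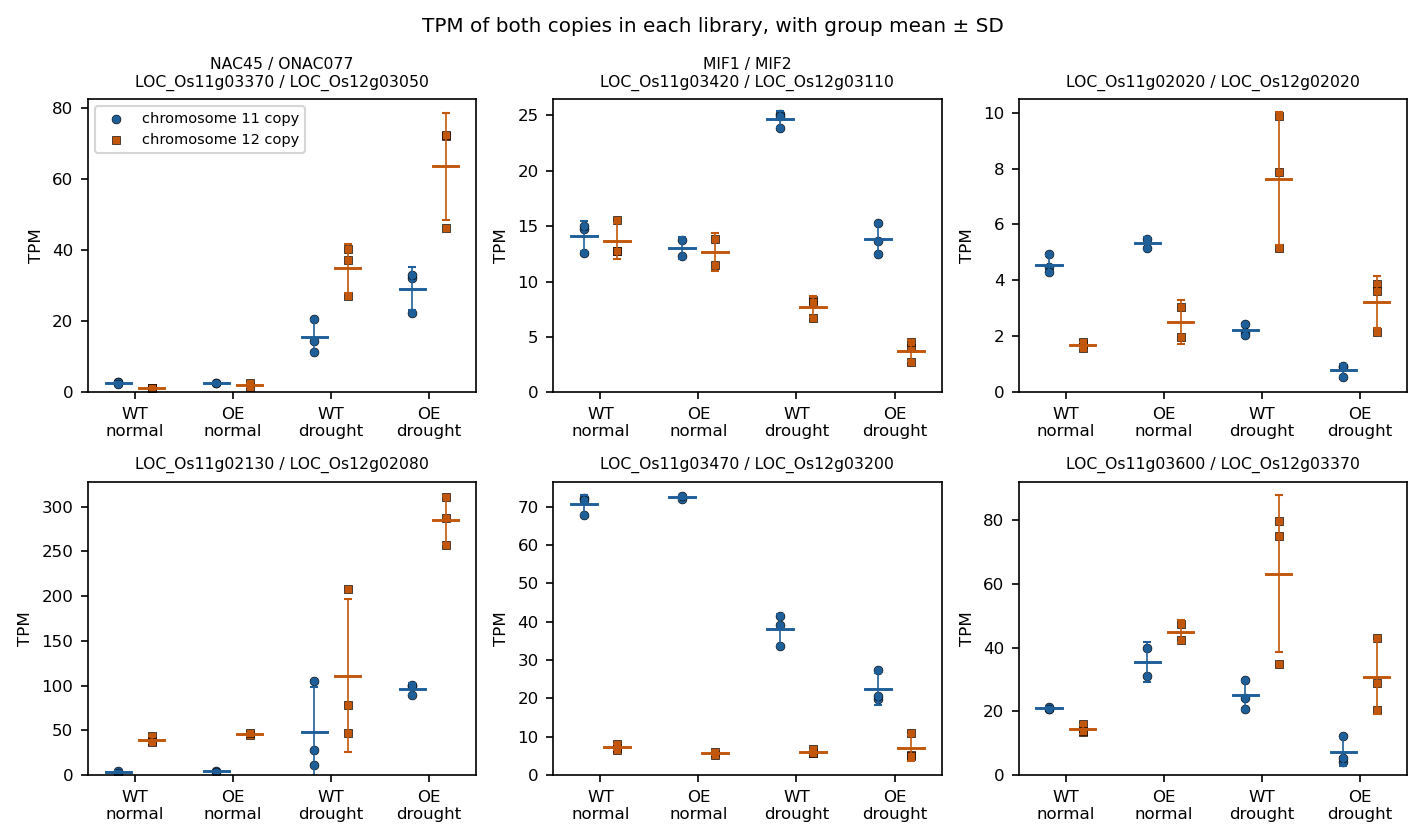
TPM (vertical axis, from 0) of the chromosome 11 copy (circles) and the chromosome 12 copy (squares) of 6 pairs in each library, with bars for the group mean ± SD, for the 5 normal and 6 drought libraries. The order of NAC45 and ONAC077 and of LOC_Os11g02020 and LOC_Os12g02020 is exchanged between normal and drought, while MIF1 and MIF2 start level and part.

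The largest shift was that of LOC_Os11g02020 and LOC_Os12g02020, which have no name in the reference (chromosome 11, 540150 to 542918, and chromosome 12, 599704 to 602468). LOC_Os11g02020 stood at 4.46, 4.29 and 4.94 TPM in WT normal and 2.44, 2.17 and 2.04 in WT drought libraries. LOC_Os12g02020 stood at 1.73, 1.79 and 1.58 TPM in WT normal and 5.15, 7.87 and 9.89 in WT drought libraries. The chromosome 11 copy was higher in every normal library and the chromosome 12 copy in every drought library, with no overlap of the groups in WT.

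In WT the copies were called in opposite directions by limma. LOC_Os11g02020 fell by 0.79 (SE 0.13, limma adjusted p = 0.00068), and LOC_Os12g02020 rose by 1.64 (SE 0.24, limma adjusted p = 0.00028). In OE, LOC_Os11g02020 went from 5.48 and 5.16 TPM to 0.916, 0.534 and 0.921, and LOC_Os12g02020 from 1.96 and 3.07 to 3.88, 2.16 and 3.61 TPM. The chromosome 12 copy of OE overlapped between conditions, and its difference of 0.26 (SE 0.27) was not called. The log2 ratio fell by 2.26 over both genotypes (exact permutation p = 0.005). This pair lies outside the closely collinear set, although its span ratio is 0.999.

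LOC_Os11g03600 and LOC_Os12g03370 changed with both drought and genotype. In WT the chromosome 11 copy stood at 20.6, 21.3 and 20.9 TPM in normal and 24.3, 20.8 and 29.9 in drought libraries, while the chromosome 12 copy went from 13.4, 15.9 and 13.7 to 79.7, 74.9 and 34.8 TPM. In OE the chromosome 11 copy went from 39.97 and 31.1 to 12.2, 4.22 and 5.23 TPM, and the chromosome 12 copy from 47.5 and 42.4 to 42.8, 20.2 and 28.9 TPM. In WT the rise was thus seen on chromosome 12, and in OE the fall was called on chromosome 11. The log2 ratio fell by 1.71 with drought (exact permutation p = 0.005) and was lower by 0.82 in OE than in WT (exact permutation p = 0.010), written as -0.82 for OE minus WT.

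In the next 3 pairs by size of shift among the named ones, 1 copy was called with drought and the other was not. LOC_Os11g03470 stood between 67.9 and 72.3 TPM in WT normal libraries and fell to 33.6 to 41.4 in droughted WT and 19.7 to 27.4 in droughted OE libraries, and LOC_Os12g03200 stayed between 5.0 and 10.9 TPM throughout, with no call. Their log2 ratio fell by 1.26 (exact permutation p = 0.005). LOC_Os12g02070 stood between 6.80 and 6.97 TPM in WT normal libraries and between 0.777 and 1.05 in OE drought libraries, while LOC_Os11g02110 ranged from 4.28 to 6.95 TPM over all libraries. That ratio moved by 1.4 toward chromosome 11 (exact permutation p = 0.005), and the span ratio of 0.806 makes the pairing less sure.

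LOC_Os11g03390 stood between 5.06 and 6.54 TPM in WT normal libraries and between 0.105 and 0.288 in OE drought libraries, and its partner LOC_Os12g03070 was at 1.54 TPM or less in every library. The log2 ratio fell by 1.28 (exact permutation p = 0.005), again with a low span ratio of 0.811. LOC_Os11g03780 and LOC_Os12g03530 were called in opposite directions in OE, with a fall of 1.19 (SE 0.23) and a rise of 0.50 (SE 0.18), limma adjusted p of 0.0012 and 0.027. The fall was not called with median-ratio scaling, the rise was not called with library weights per group, and the shift of -0.93 (exact permutation p = 0.030) passed with 4 of the 11 libraries left out in turn and not with the other 7.

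Most drought changes were shared by the copies. Among the 68 pairs, both copies rose in 8 and both fell in 25 in WT, and 2 pairs had copies called in opposite directions. For comparison, 64.3% of all tested loci were called in WT (20.3% higher, 44.0% lower) and 70.8% in OE (19.4% higher, 51.3% lower). In OE both rose in 8, both fell in 27 and 1 pair was opposite. One copy alone passed in the remaining called pairs, on chromosome 11 in 7 and on chromosome 12 in 13 in WT, and in 12 and 13 in OE. The median log2 difference of all tested loci was itself -0.35 in WT and -0.56 in OE. The pair counts were not made with median-ratio scaling. Across pairs the copies' log2 differences had a correlation of 0.81 in WT and 0.79 in OE over 68 points, which share libraries and possibly reads. The named pairs show the range.

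**Figure D2:**
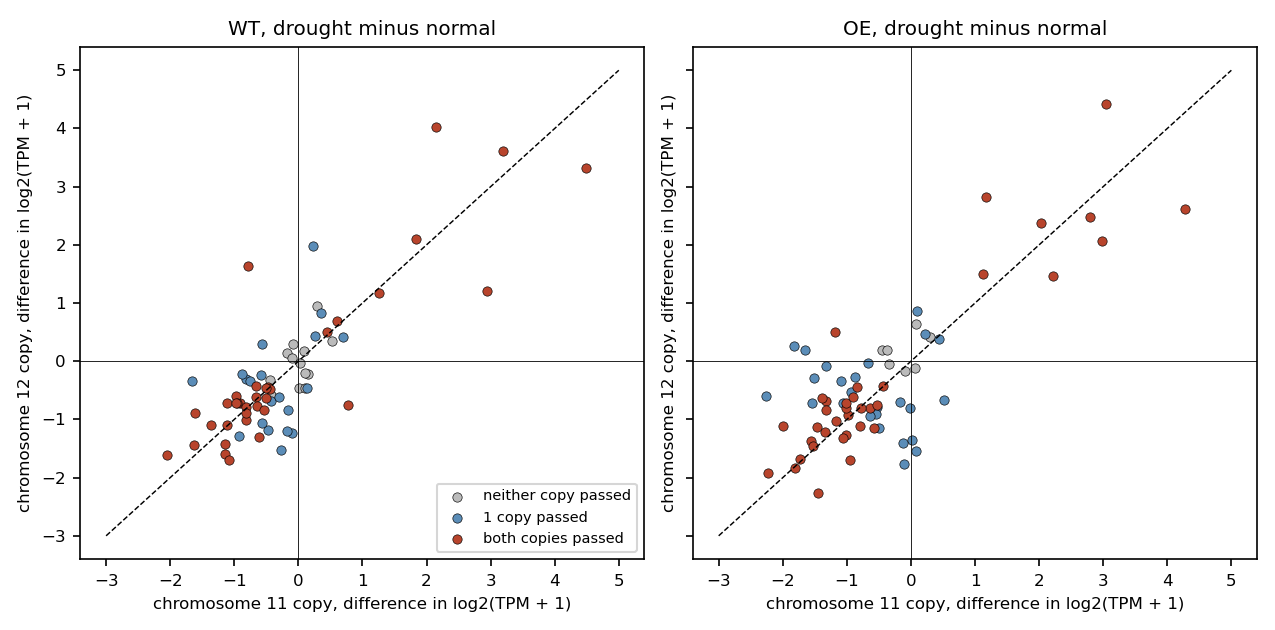
Difference in mean log2(TPM + 1), drought minus normal, of the chromosome 11 copy (horizontal axis) and the chromosome 12 copy (vertical axis) of 68 pairs, in WT and in OE. Points on the dashed line changed alike, colours give how many copies passed limma's adjusted threshold, and the 2 WT pairs and 1 OE pair called in opposite directions lie in the upper left or lower right part.

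DRB7 (LOC_Os11g01869) and DRB1 (LOC_Os12g01916) encode double-stranded RNA-binding proteins, a family that assists the Dicer-like enzymes. DRB7 stood at 10.2, 9.63 and 9.53 TPM in WT normal and 4.27, 3.70 and 3.97 in WT drought libraries, and DRB1 at 7.32, 6.72 and 6.26 and then 4.08, 2.70 and 4.52 TPM. Both fell without overlap. The log2 ratio fell by 0.58 with drought (exact permutation p = 0.005) and was lower by 0.21 in OE (exact permutation p = 0.040), a value of -0.21. That genotype difference lay in the drought libraries, with means of 0.081 in WT and -0.31 in OE. In normal libraries the means were 0.48 and 0.45. It did not pass after adjustment over the pairs. The limma fall of DRB1 was not called with median-ratio scaling.

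The phototropins PHOT1B (LOC_Os11g01140) and PHOT1A (LOC_Os12g01140), blue light receptor kinases, are the outermost pair and were low. PHOT1B stood at 1.46, 1.13 and 1.48 TPM in WT normal and 3.13, 2.65 and 2.63 in WT drought libraries, without overlap. PHOT1A stood at 2.45, 1.52 and 2.60 and at 3.89, 2.98 and 2.78 TPM in the same groups. In WT the rise was called for PHOT1B (0.69, SE 0.14, limma adjusted p = 0.0018) and in OE for PHOT1A (0.87, SE 0.20, limma adjusted p = 0.0032). The drought and normal ratios did not overlap in either genotype but moved in opposite ways, by 0.28 in WT and -0.78 in OE. The margin in WT was small, with -0.246 in WT normal replicate 2 and -0.242 in WT drought replicate 1. WT normal replicates 1 and 3 lay lower, at -0.486 and -0.536. Over both genotypes the shift was -0.25 (exact permutation p = 0.275).

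WNK7 (LOC_Os11g02300) and WNK8 (LOC_Os12g02250) belong to the WNK kinases, which lack a lysine that is conserved in other kinases. WNK7 was between 7.61 and 19.6 TPM over the 11 libraries with no call in any comparison. WNK8 stood at 38.3, 39.2 and 20.0 TPM in OE drought and 13.1, 10.6 and 19.2 in WT drought libraries. Its groups did not overlap, and the difference of 1.11 (SE 0.27, limma adjusted p = 0.0096) was not called in a fit of those 2 groups alone. TBL10 (LOC_Os11g01370), a xylan acetyltransferase, and its copy LOC_Os12g01380 were between 7.40 and 13.6 and between 9.64 and 16.4 TPM, with no call.

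LAC23 (LOC_Os12g01730), a laccase, an enzyme class that oxidises lignin precursors, and its copy LOC_Os11g01730 moved together. LAC23 stood at 8.81, 7.44 and 5.26 TPM in WT drought and 1.027, 1.71 and 2.44 in OE drought libraries. Its copy stood at 5.76, 4.66 and 2.78 TPM and at 0.857, 0.443 and 0.586 TPM. Both were lower in every OE drought library, by 1.59 (SE 0.22) for LAC23 and 1.70 for LOC_Os11g01730, written as log2 differences of -1.59 and -1.70 with limma adjusted p of 0.00064 and 0.00048. Their ratio shifted by -0.042 with drought (exact permutation p = 0.870).

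LOC_Os11g02470 and LOC_Os12g02400 were nearly silent in normal conditions. They stood at 0.527, 0.750 and 0.379 TPM and 0.538, 1.20 and 0.393 TPM in WT normal libraries, and at 31.3, 39.9 and 30.0 and 21.7, 18.5 and 9.49 TPM in WT drought libraries. Both rose without overlap, by 4.48 (SE 0.21) and 3.32 (SE 0.37), with limma adjusted p of 2.7e-07 and 5.0e-05. The log2 ratio moved by 1.04 toward chromosome 11 (exact permutation p = 0.005). In OE drought libraries the copies reached 9.59 to 17.2 and 3.19 to 8.98 TPM, lower than in WT drought in every library.

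Fewer pairs differed in balance between genotypes than between drought and normal libraries. In the exact permutation test of OE against WT, with labels permuted within condition, the log2 ratio differed at an unadjusted p under 0.05 in 8 of 68 pairs (11.8%), toward chromosome 11 in 4 and toward chromosome 12 in 4, and no pair passed after adjustment over the 68. The median absolute difference was 0.18, against 0.30 for drought. These counts share libraries and the difference between them was not tested. The pairs were the DRB and LOC_Os11g03600 pairs above, LOC_Os11g03380 and LOC_Os11g02110 with their copies, and, named after their values were seen, those of LOC_Os11g02310, LOC_Os11g03200, LOC_Os11g03560 and LOC_Os11g03794.

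**Figure D3:**
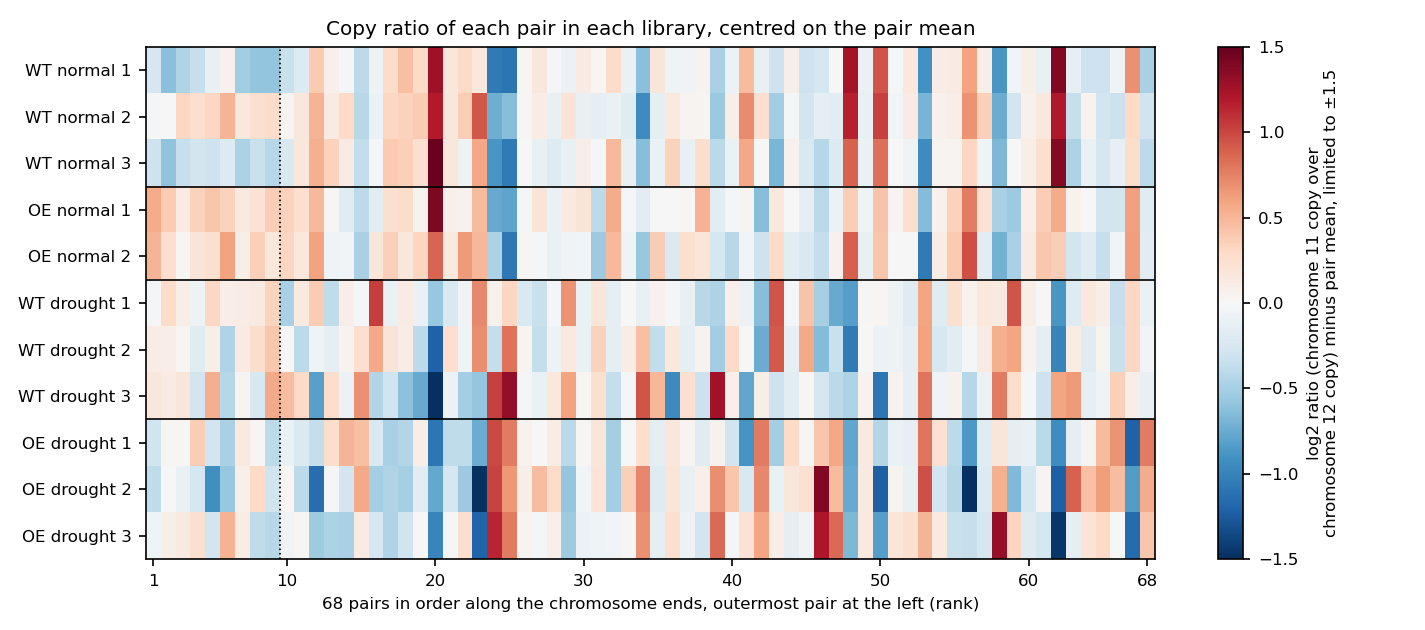
Log2 ratio of the copies (chromosome 11 over chromosome 12, TPM + 1) in each of 11 libraries (rows), minus the pair's mean over the libraries, for 68 pairs in order from the chromosome ends inward (columns), colours limited to ±1.5. Columns that change colour between the upper 5 rows (normal) and lower 6 rows (drought) are pairs whose balance shifted, and left of the dotted line WT normal replicates 1 and 3 are blue in nearly all of the 9 outermost pairs.

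The position along the ends was described in bins of 500000 bases by the start on chromosome 11. From the outside inward they held 19, 24 and 25 pairs, of which 5, 12 and 15 shifted with drought at an unadjusted exact permutation p under 0.05. The median absolute shift was 0.18, 0.33 and 0.43 and the median absolute log2 ratio 0.26, 0.60 and 0.32. These are descriptions with no test between bins.

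In the 9 outermost pairs the libraries of one group did not hold the same ratio. These pairs, chosen after their values were seen, span bases 79187 to 264493 of chromosome 11 and 75281 to 291513 of chromosome 12. The median log2 ratio over them was -0.72 in WT normal replicate 1 and -0.61 in replicate 3, but 0.029 in replicate 2 and 0.10 and -0.026 in the OE normal libraries. It was -0.039, -0.12 and -0.11 in WT drought libraries, and lower in OE drought libraries, at -0.45, -0.54 and -0.29. WT normal replicates 1 and 3 lay below replicate 2 and both OE normal libraries in 9 of 9 pairs. They lay below all other libraries in 5. Among the other 59 pairs they lay below replicate 2 in 21 and above it in 19.

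In 8 of those 9 pairs the ratio varied more between normal libraries than the summed level of both copies did. The same held in 37 of the other 59 pairs. Since the 9 pairs were chosen after their values were seen, a wide spread of the ratio there was partly fixed by the choice. The pooled SD within normal groups had a median of 0.31 for the log2 ratio and 0.059 for log2 of the summed TPM, against 0.13 and 0.076 in the other 59 pairs. The exception among the 9 was PHOT1B and PHOT1A, with 0.128 for the ratio and 0.218 for the sum. LOC_Os11g01380 and LOC_Os12g01390 together stood at 101, 98.8 and 100.0 TPM in WT normal libraries. No outermost pair passed either exact permutation test at 0.05, with all 11 libraries. How reads were divided between copies was not tested.

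**Figure D4:**
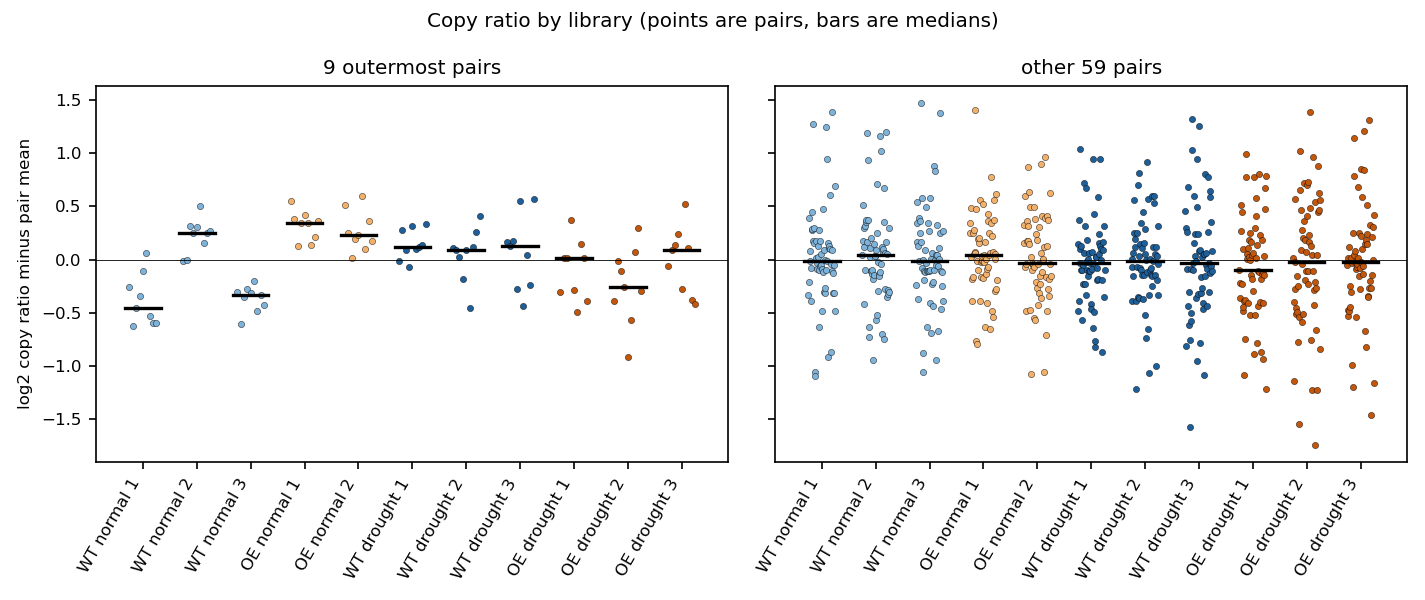
Log2 copy ratio minus the pair's mean over the 11 libraries (vertical axis) in each library (horizontal axis), for the 9 outermost pairs (left) and the other 59 pairs (right), with a point for each pair and a bar for the median. WT normal replicates 1 and 3 sit below WT normal replicate 2 and both OE normal libraries in the left panel, and no such step is seen in the medians of the right panel.

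In the 25 pairs with 1 copy among the 279 loci, the other copy did not reach 1 TPM in 2 libraries, and 8 of these pairs were closely collinear. LOC_Os12g02300 stood at 93.8, 110.0 and 97.7 TPM in WT normal libraries and 27.5, 27.6 and 15.0 in WT drought libraries. It fell by 2.10 (SE 0.40, limma adjusted p = 0.0013), and the highest value of its assigned partner in any library was 0.179 TPM. That pairing is unsure, since both loci lie beside the tandem group described below. A nearby chromosome 11 locus, LOC_Os11g02350, had means of 119 TPM in WT normal and 45.6 in WT drought libraries. The means of LOC_Os12g02300 were 100 and 23.4 TPM, and which locus is its copy was not tested. LOC_Os12g01210 fell by 2.21 (SE 0.20, limma adjusted p = 1.1e-05), from 7.18, 4.52 and 7.43 TPM to 0.935, 0.487 and 0.332. The highest value of its partner was 0.0769 TPM. LOC_Os12g01360, whose partner was left out, fell by 1.28 in WT (SE 0.36, limma adjusted p = 0.010), a call lost with median-ratio scaling.

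The ends also hold a tandem group of lipid transfer protein genes, whose products are small secreted proteins that bind lipids. PAPI (LOC_Os12g02320) was listed at 0 in 4 of 5 normal libraries and at 0.11 TPM in the other. It reached 3.11, 1.14 and 3.96 TPM in WT drought and 45.5, 54.2 and 26.4 in OE drought libraries, with no overlap between any of these groups. LTP110-A (LOC_Os11g02350) went the other way, from 113, 127 and 118 TPM in WT normal to 48.4, 49.8 and 38.7 in WT drought and 17.7, 18.7 and 47.4 in OE drought libraries. It fell by 1.37 in WT and 2.07 in OE. Pairs within and beside the tandem group are unsure, since tandem neighbours cannot be told from copies by order alone. Of 8 copy pairs with matching names in the reference, the pairing joined 7. The pair it did not join was LTP2-A (LOC_Os11g02369) and LTP2-B (LOC_Os12g02310), of this group.

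LOC_Os11g02389, which has no name in the reference and no partner, lay between 0.243 and 0.704 TPM in the normal libraries. It was read at 2.18, 9.39 and 100.3 TPM in WT drought and at 152, 221 and 122 TPM in OE drought libraries. WT drought replicate 3 was far above its group, and without it the log2 rise in WT went from 3.29 to 1.91. The rise in OE was 6.93 (SE 1.06, limma adjusted p = 0.00027), the largest of the 279 loci in that comparison. After drought OE exceeded WT by 3.43, a call lost without WT drought replicate 2 or OE drought replicate 2, with values from 2.31 to 4.81 over the libraries left out. Neither that difference nor the WT rise was called in a fit of the 2 groups compared alone.

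Over all 279 loci, counts were read against all tested loci. With limma and an adjusted p under 0.05, 169 differed between drought and normal in WT (60.6%, against 64.3% of all tested loci), 47 higher (20.3% of all loci) and 122 lower (44.0% of all loci). In OE 192 differed (68.8%, against 70.8%), 42 higher (19.4% of all loci) and 150 lower (51.3% of all loci). Both shares are near the background. The median of all tested loci was itself -0.35 in WT and -0.56 in OE, and median-ratio scaling moved it by 0.335 and 0.541. With that scaling the split was 76 higher and 68 lower in WT and 77 and 85 in OE. The median of the 279 loci was -0.42 and -0.63 without it.

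LOC_Os12g02240, without a name or partner, gave the largest rise in WT drought and the single call of OE against WT in normal conditions. It stood at 10.7, 10.7 and 9.39 TPM in WT normal and 53.2 and 55.4 in OE normal libraries, and at 645, 791 and 348 TPM in WT drought and 427, 353 and 362 in OE drought libraries. The normal groups did not overlap, with OE higher by 2.30 (SE 0.28, limma adjusted p = 0.0028), and the call was lost without OE normal replicate 2. With that 1 call the share was 0.358%, against 1.76% of all loci (1.24% higher, 0.519% lower). The normal groups had far less spread than the drought groups, and the fit shares one spread. In a fit of the normal libraries alone 58 of 279 (20.8%) were called, against 30.0% of all loci, and with library weights per group 60 (21.5%, against 28.1%).

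LOC_Os11g01390 rose from 0.114, 0.0909 and 0.123 TPM in WT normal to 46.0, 39.97 and 9.33 TPM in WT drought, a log2 rise of 4.61 (SE 0.51, limma adjusted p = 4.5e-05). Without WT drought replicate 3 the rise was 5.31. A locus at the matching place on chromosome 12, LOC_Os12g01400, had group means of 0.303 and 24.1 TPM. LOC_Os11g02750 fell from 9.39, 8.71 and 8.36 to 0.579, 0.991 and 5.69 TPM in WT, by 1.83 (SE 0.44, limma adjusted p = 0.0049), and by 2.47 without replicate 3.

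After drought, OE differed from WT in 95 of 279 loci (34.1%, against 38.6% of all loci), 20 higher (12.1% of all loci) and 75 lower (26.5% of all loci). In the 6 drought libraries fitted alone, 35 were called (12.5%, against 14.6%). Both copies of a pair were called together in 4 pairs that were higher and 15 that were lower, and none was opposite. The chromosome 11 copy alone was called in 9 pairs, the chromosome 12 copy alone in 7, and neither in 33. LOC_Os11g01570 had the largest fall, from 70.3, 57.3 and 60.7 TPM in WT drought to 9.28, 22.2 and 22.8 in OE drought libraries. The groups did not overlap, with a log2 difference of -1.83 (SE 0.28, limma adjusted p = 0.0011).

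PAPI (LOC_Os12g02320) gave the largest rise, 3.55 (SE 0.32, limma adjusted p = 6.9e-05), followed by LOC_Os11g02389. LOC_Os11g02610 was next, at 3.05, 2.80 and 12.8 TPM in WT drought and 24.7, 32.3 and 15.4 in OE drought libraries. Its copy LOC_Os12g02530 stood at 0.551, 0.512 and 0.599 and then at 5.79, 4.68 and 1.52 TPM. Neither locus overlapped between genotypes, and they were higher in OE by 2.01 (SE 0.44) and 1.57 (SE 0.30). Without WT drought replicate 3 the difference of LOC_Os11g02610 was 2.62, and it was not called in a fit of those 2 groups alone.

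The drought response itself differed between genotypes in 44 loci (15.8%, against 15.9% of all loci), higher in OE in 7 (4.6% of all loci) and lower in 37 (11.3% of all loci). This count moved between 8 and 80 when 1 library was left out. LOC_Os12g03260 showed such a difference plainly. It stood at 10.3, 10.4 and 10.2 TPM in WT normal and 7.41, 6.95 and 5.16 in WT drought, and at 15.3 and 13.6 in OE normal and 1.58, 1.56 and 2.12 in OE drought libraries. The fall was 0.60 in WT and 2.49 in OE, and the difference of the responses was -1.89 (SE 0.23, limma adjusted p = 0.0012). LOC_Os11g03130 went the other way, from 7.0, 6.85 and 5.89 to 3.50, 2.26 and 7.29 TPM in WT and from 5.82 and 5.90 to 12.1, 15.0 and 18.3 TPM in OE, a difference of 1.83 (SE 0.44, limma adjusted p = 0.023) that was lost when either OE normal library or WT normal replicate 1 or 2 was left out.

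**Figure D5:**
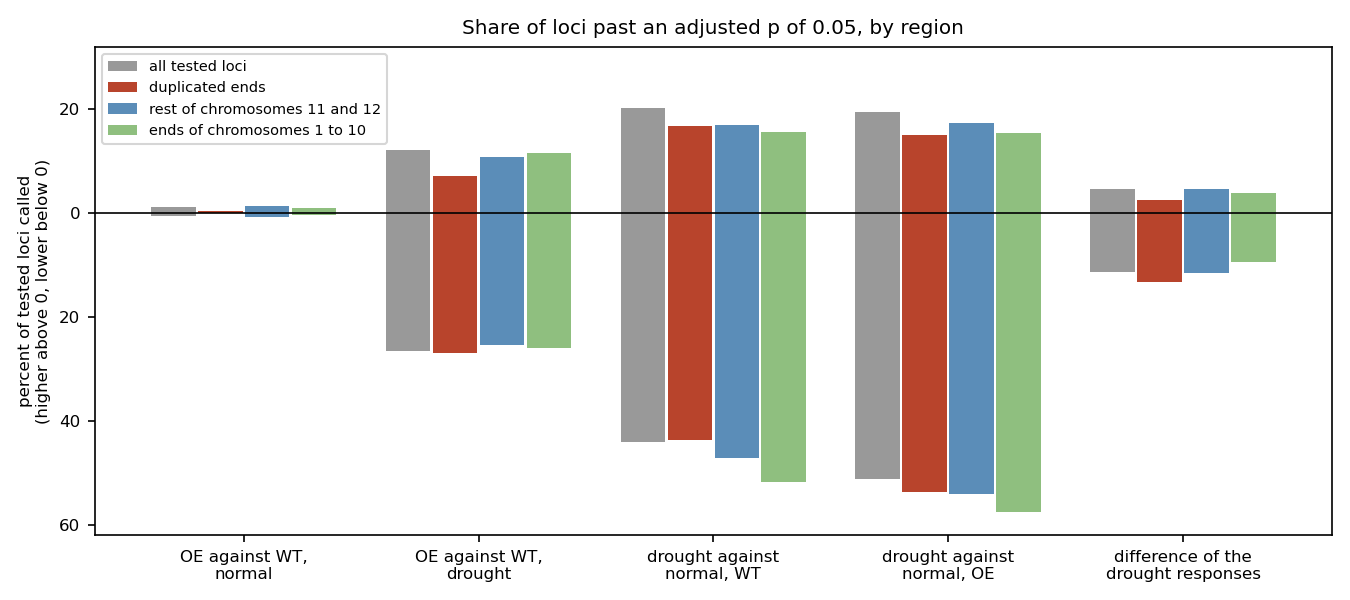
Percent of tested loci called by limma at an adjusted p of 0.05 (vertical axis, higher above 0 and lower below 0) in 5 comparisons, for all 23699 tested loci, the 279 loci of the duplicated ends, 1821 loci of the rest of chromosomes 11 and 12 and 1164 loci of the same-length ends of chromosomes 1 to 10. The duplicated ends lie near the other regions in the drought comparisons.

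The named loci MAN7 and CYP714C2, which have no pair, were not called in any comparison. MAN7 (LOC_Os11g02600), an endo-mannanase, lay between 1.07 and 4.86 TPM, and CYP714C2 (LOC_Os12g02640), a cytochrome P450, between 0.982 and 2.70 TPM over the 11 libraries. LOC_Os12g02370 fell in OE by 2.55 (SE 0.35, limma adjusted p = 0.00014), from 28.7 and 29.3 to 2.77, 5.90 and 4.2 TPM without overlap. LOC_Os11g03760 stood at 33.8, 36.9 and 34.2 TPM in WT normal and 13.5 to 16.3 in WT drought libraries. In OE it went from 32.2 and 30.2 to between 20.2 and 24.5 TPM, a fall by 0.47 that turned into a rise of 0.16 with median-ratio scaling.

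The tissue label was set against markers. The summed level of the root silicon transporters LSI1 and LSI2 was 1893 to 1939 TPM in WT normal, 1709.6 to 1870.0 in OE normal, 536 to 609 in droughted WT and 91.9 to 251 in droughted OE libraries. Of 4 leaf photosynthesis loci (CAB1R, CAB2R and 2 loci of the small subunit of Rubisco, 1 of them without that name in the reference), none was at 0, and their sum was 876 to 1222 TPM in WT normal, 370.4 to 376 in OE normal, 330 to 611 in droughted WT and 45.2 to 198 in droughted OE libraries. Both sums move with genotype and condition, and their part in the differences above was not tested. In whole roots, fewer cells of a type and less RNA per cell cannot be told apart.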

How the data were processed

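Root RNA was sequenced in 11 libraries, and 18 ATAC-seq samples of the series were not analysed here. The deposited TPM values, which sum to 1000000 per library, were tested. The deposited FPKM values differ from TPM by 1 factor per library, and the deposited coverage served, divided by FPKM, for an implied depth in gigabases. StringTie 1.3.6 and STAR 1.5.2 are among the tools in the submitters' processing notes, with no roles stated. Build, annotation, strandedness and handling of reads that map to several places: not given in the sources used here. If strand was not used, reads of overlapping loci, 21 of the 279, cannot be told apart. Without counts, no counting interval can be given, and an exact 0 may be a failed estimate.

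Loci with at least 1 TPM in 2 libraries were fitted on log2(TPM + 1) with limma 3.58.1 in R 4.3.3 (group means, trend, two-sided, Benjamini-Hochberg over all 23699 loci, threshold 0.05). Differences on this scale understate changes of low loci. Pairs were a chain of collinear loci on the same strand with a span ratio of at least 0.8 and offset steps of at most 30000 bases. Names were taken from a RefSeq table (assembly ASM3414082v1) by order and span, within 1000 bases at both ends after the local offset. Tests were tested on simulated data. Joins used pandas 2.3.3 and numpy 2.4.6, and plots matplotlib 3.10.9, in Python 3.11.15. The members, pairs, lists and tests were chosen with earlier results of these data known.

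Named loci are the 8 largest drought shifts of the ratio with at least 5 TPM, the 5 highest and 5 most unequal pairs, the 3 largest called rises and falls per comparison with at least 5 TPM, pairs called in opposite directions and loci named in the reference. LOC_Os01g56140 and the markers are checks. Partners of these loci, the pair of LOC_Os11g01380 and LOC_Os12g01400 are given beside them, chosen after their values were seen. Alternatives were the pseudocount, the filter, scaling, weights per group, a replicate block, fits of 2 groups, each library left out, and stricter pairing.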

Additional observations from a re-analysis of the deposited data

Results flagged for a closer look

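The drought response of OE minus that of WT passed limma's adjusted threshold in 44 of the 279 loci, near the share of all tested loci, and was flagged as a difference between genotypes for the loci below. Both copies were below WT in this difference for LOC_Os11g02020 (-1.04) and LOC_Os12g02020 (-1.38), and for LOC_Os11g03600 (-2.50) and LOC_Os12g03370 (-2.57). The same held for LAC23 (LOC_Os12g01730, -1.5) and its copy LOC_Os11g01730 (-1.36). Over all tested pairs, both copies were called lower in 5, the chromosome 11 copy alone was called in 9, the chromosome 12 copy alone in 7, and neither in 47. One named copy of a pair was lower for LOC_Os11g01570 (-1.81), LOC_Os11g02470 (-1.49), MIF1 (LOC_Os11g03420, -0.69), LOC_Os11g03470 (-0.78), LOC_Os11g03780 (-1.44), LOC_Os12g02630 (-1.48) and LOC_Os12g03470 (-0.59). Loci without a tested pair were lower for LOC_Os11g01390 (-2.53), LOC_Os12g02240 (-2.87), LOC_Os12g02370 (-1.59) and LOC_Os12g03260 (-1.89). Higher responses in OE were given by PAPI (LOC_Os12g02320, 3.48), LOC_Os11g03130 (1.83) and LOC_Os11g03760 (0.72). Of the 11 libraries left out in turn, 9 ended this call for LOC_Os11g01390, LOC_Os11g03470 and LOC_Os12g02370, 8 for MIF1 and LOC_Os12g03470, 7 for LOC_Os12g02020 and 5 for LOC_Os11g03760. The call of LOC_Os11g03760 was also lost with the replicate block, and the calls of the other 6 loci with median-ratio scaling.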

How the results depend on the processing

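The drought counts in WT (169) and OE (192) stayed within 1.5 times under every alternative run. OE against WT in normal conditions went from 1 to 2 with a pseudocount of 0.1, to 60 with library weights per group, to 58 with the 2 groups alone, and from 0 to 11 with single libraries left out, where WT drought replicate 3 gave the 11. OE against WT after drought went from 95 to 47 with weights and 35 with the 2 groups alone. The difference of responses went from 44 to 26 with median-ratio scaling and from 8 to 80 with single libraries left out, 8 and 9 without OE normal replicates 1 and 2 and 80 without WT drought replicate 3. The replicate block, fitted because the labels number the replicates, gave 28 calls for that difference. Same-numbered libraries deviated with correlations of -0.132 to 0.059, and libraries of other numbers with -0.271 to 0.252. This gave no sign that the numbers pair the samples, but so few libraries per group cannot settle it. For the ratio tests a block on replicate number could not give a call, since 5 number-matched pairs cannot reach 0.05. The drought count of pairs was 32, and 18 without WT normal replicates 1 and 3, an alternative added after the data were seen. The genotype count of pairs went from 8 to 5 with a span ratio of 0.9, with labels permuted over all libraries and with closely collinear pairs alone (added after the data were seen), and ranged from 5 to 12 with single libraries left out. The number of pairs went from 68 to 41 with offset steps of at most 10000 bases, and only 28 of these were among the 68. With a span ratio of 0.9 it was 51, of which 44 were among the 68. The pairs of NAC45, MIF1, LOC_Os11g02020 and LOC_Os11g03600 were not joined with the smaller offset steps. The median absolute log2 ratio went from 0.36 to 0.45 with a pseudocount of 0.1. Of the named loci, LOC_Os11g03380 and LOC_Os11g03760 turned from a fall to a rise in OE with median-ratio scaling (0.12 and 0.16), not called. The cause of these changes was not tested.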
